A study of Homo sapiens with 12 samples.

Results

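The 6 genes described here are IDO1, IDO2, AFMID, KMO, KYNU and WARS1, which encode enzymes that use tryptophan or a product of its breakdown. They were taken by symbol from the probe sets annotated to exactly 1 gene, each had 1 such probe set, and they are 6 of the 18417 genes tested. The members were chosen by the difference between HBL-1 induced and uninduced arrays, above all the low IDO1 after induction. Their values in that contrast are therefore a description, with no test, and so is the level of IDO1 between the lines.

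The data came from 12 single-colour arrays of total RNA from 2 human lymphoma lines. U-H01 is labelled as a Hodgkin lymphoma line and was grown with 20% FBS, and HBL-1 is labelled as an activated B-cell-like diffuse large B-cell lymphoma line and was grown with 10% FBS. Cells of both lines had been infected with shRNA hairpins against RelB and cRel, subunits of the transcription factor NF-kB, with 2 sequences for each. A part of every transduced population received doxycycline, which switches the hairpin on, and the other part did not. The groups are U-H01 labelled induced (4 arrays) and U-H01 uninduced (4 arrays), each from populations B1 and B2 with 2 time points, then HBL-1 induced (2 arrays) and HBL-1 uninduced (2 arrays), with population C at 2 time points. Uninduced cells thus carry the hairpins too. No array comes from cells given doxycycline without these hairpins, so the drug itself and the hairpin cannot be told apart in either line. Which hairpin B1, B2 or C holds is not stated. Separate cultures are not stated either for arrays of 1 group, and the p-values here therefore reflect array-to-array spread alone, perhaps a technical one.

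The kynurenine pathway is the main route by which cells break down tryptophan. IDO1 and IDO2 open the tryptophan ring to give N-formylkynurenine, AFMID turns that into kynurenine, KMO makes 3-hydroxykynurenine, and KYNU cleaves kynurenine and 3-hydroxykynurenine to anthranilate and 3-hydroxyanthranilate. WARS1 competes for the same amino acid, because it loads tryptophan onto its transfer RNA for protein synthesis. IDO1 and WARS1 are both induced by interferon-gamma, and cells that express IDO1 can restrain T cells by using up tryptophan and by releasing kynurenine, a ligand of the aryl hydrocarbon receptor AHR.

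The sequences below show the windows before a start site that hold motifs of the interferon pathway, for KYNU and WARS1, the genes with the largest differences between the U-H01 groups. They are the 250 bases before the start, read 5′ to 3′ on the strand of the gene, from RefSeq on GRCh38.p14, with motif matches in capitals.
KYNU, chr2:142877414-142877663, plus strand: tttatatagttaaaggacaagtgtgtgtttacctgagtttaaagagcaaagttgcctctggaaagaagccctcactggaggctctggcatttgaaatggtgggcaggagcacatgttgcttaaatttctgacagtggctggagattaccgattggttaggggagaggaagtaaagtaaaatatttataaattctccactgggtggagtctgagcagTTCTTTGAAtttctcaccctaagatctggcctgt
WARS1, downstream start, chr14:100375348-100375597, minus strand: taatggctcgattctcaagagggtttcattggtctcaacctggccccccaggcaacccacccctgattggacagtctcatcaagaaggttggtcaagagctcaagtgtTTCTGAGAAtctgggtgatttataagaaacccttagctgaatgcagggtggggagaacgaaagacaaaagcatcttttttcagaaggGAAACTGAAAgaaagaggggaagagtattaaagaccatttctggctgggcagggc
In the KYNU window the capitals mark 1 match to the gamma-activated sequence TTCNNNGAA, at positions -34 to -26 counted from the start. In the WARS1 window they mark such a match at positions -142 to -134 and a match to the interferon-stimulated response element, a pair of GAAA with NN between them, at positions -55 to -46. Windows were at hand for 4 of the 6 genes (5 windows). The NF-kB letters searched were GGG and TTCC with NNN between them, and 0 of these windows matched. Other forms of the NF-kB site were not searched, so a site of another form may be present. The windows of KMO, of AFMID and of the other WARS1 start held no match to any of the letters searched on either strand. The matches found did not overlap. Of 35116 such windows over all genes, 6.57% held the gamma-activated sequence, 3.02% the response element and 5.67% the NF-kB letters.

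Before the results, the standing of the U-H01 arrays has to be given. Levels are the deposited log2 values after RMA. Over 19460 probe sets, U-H01 arrays labelled induced correlated with U-H01 uninduced arrays at 0.893 to 0.910, and with HBL-1 arrays at 0.905 to 0.917. Within each group the correlations were 0.991 to 0.996, and HBL-1 induced arrays correlated with HBL-1 uninduced arrays at 0.992 to 0.994. A check for mixed-up samples split the 8 U-H01 arrays, with 4 not matching the other 4. The mean level of 6 B-cell markers was 8.08 to 8.38 on U-H01 arrays labelled induced and 6.18 to 6.44 on U-H01 uninduced arrays. In each of these groups 4 of the 6 lay above the array median on all arrays, CD79A only in the first and BLK only in the second. Of these 6, 3 were higher and 1 was lower on arrays labelled induced (66.7% called, against 45.8% of all genes). Of 5 Hodgkin cell markers (80% called), 1 was higher and 3 were lower on U-H01 arrays labelled induced, with a median of -0.47. The higher one was TNFRSF8, the CD30 antigen, which averaged 11.6 on U-H01 arrays labelled induced and 6.89 on U-H01 uninduced arrays. Their mean level was 6.90 to 7.11 on U-H01 arrays labelled induced and 7.52 to 7.63 on U-H01 uninduced arrays. In HBL-1 all 6 B-cell markers lay above the array median in both groups. The part of these differences in the results was not tested. The labels do not settle whether both U-H01 groups hold the same cells, so hairpin induction and a difference between the cells of the groups cannot be told apart. Rose and fell, used of U-H01, describe arrays labelled induced against arrays labelled uninduced. In bulk RNA fewer cells of a type and less RNA per cell cannot be told apart. The genes targeted by the hairpins did not separate the groups by the test adjusted over all genes. RELB averaged 7.25 on U-H01 arrays labelled induced and 7.40 on U-H01 uninduced arrays, and 7.48 on HBL-1 induced and 7.67 on HBL-1 uninduced arrays. REL, the gene of cRel, averaged 10.2 and 9.96 in the same U-H01 groups, and 9.25 and 9.74 in the HBL-1 groups. Neither gene passed the test in either line, where passing means a limma adjusted p under 0.05 over all genes. The nearest was REL in HBL-1, at -0.49 ± 0.12 (log2 difference ± SE, limma adjusted p = 0.123). This lower REL level on HBL-1 induced arrays had an unadjusted limma p under 0.05.

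IDO1 was high on the HBL-1 arrays, and its level was lower on the induced array of both HBL-1 pairs. It measured 7.86 and 8.13 on HBL-1 induced arrays at time points 1 and 2, against 10.0 and 9.97 on HBL-1 uninduced arrays. The groups did not overlap, which carries little weight with 2 arrays in each, and the differences within the pairs were -2.15 and -1.84. Their mean was -1.99 on the log2 scale, which is 3.98-fold lower. In the comparison as a whole 111 of 18417 genes passed, which is 0.603% (0.418% higher and 0.185% lower), and the other 5 members had mean differences between -0.37 and 0.25. That count was 15 without either HBL-1 array of time point 1 and 8 without either one of time point 2. Leaving out the 4 U-H01 arrays labelled induced did not move the IDO1 difference, which is an average of the 2 HBL-1 pairs.

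In U-H01, IDO1 was low everywhere. It measured 3.75 and 4.14 in B1 and 4.18 and 3.90 in B2 on arrays labelled induced, against 3.81 and 3.84 in B1 and 3.95 and 3.64 in B2 on uninduced arrays. All of these lie below the lower quartile of probe sets on their own array, which ran from 4.18 to 4.28, so they are near the background and folds taken from them can be understated. The U-H01 groups overlapped. The difference was 0.18 ± 0.11 (limma adjusted p = 0.223), with a 95% interval from -0.06 to 0.43. It passed when each array was centred on its median, at 0.32 (adjusted p = 0.0231), a scaling that also moved the median gene by 0.13. It passed as well without the U-H01 labelled induced array of B1 at time point 1, at 0.31 (adjusted p = 0.0312). Between the lines IDO1 averaged 3.99 ± 0.20 on U-H01 arrays labelled induced (SD, n = 4) and 7.99 ± 0.19 on HBL-1 induced arrays (SD, n = 2). Without induction it averaged 3.81 ± 0.13 on U-H01 arrays (SD, n = 4) and 9.99 ± 0.02 on HBL-1 arrays (SD, n = 2). The order of levels was HBL-1 uninduced, HBL-1 induced and then both U-H01 groups, which did not separate.

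**Figure D1:**
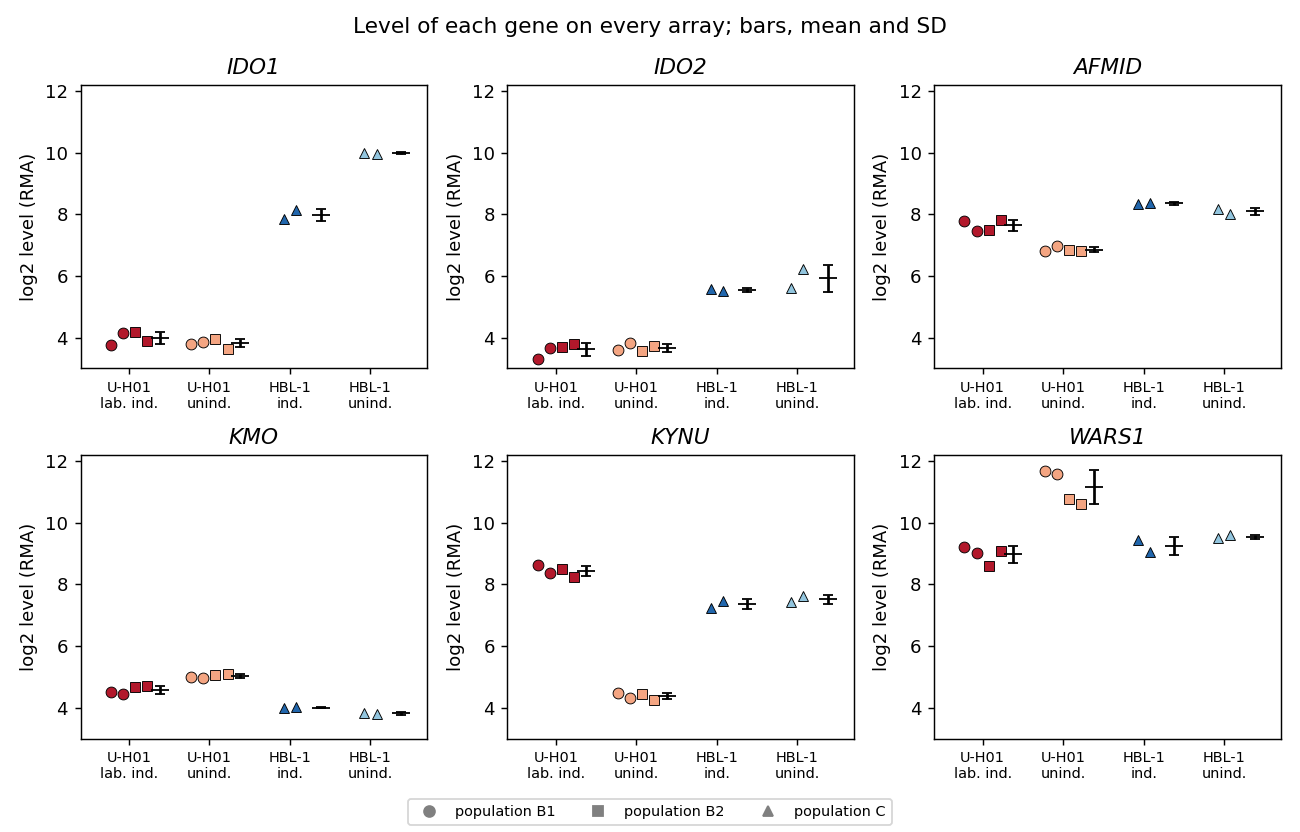
Log2 level of the 6 genes on every array (y axis, RMA values) by group (x axis). Symbols give the population, and the bar to the right of each group is its mean with the SD. IDO1 sits at 7.86 and 8.13 on HBL-1 induced arrays, 10.0 and 9.97 on HBL-1 uninduced arrays, and at most at 4.18 in U-H01. KYNU is the gene with the widest gap between the U-H01 groups.

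IDO2, the paralogue of IDO1, is its neighbour on the chromosome, with 0 protein-coding genes annotated between them. It followed the order of the lines at lower levels. It measured 5.59 and 5.50 on HBL-1 induced arrays, against 5.61 and 6.23 on HBL-1 uninduced arrays. The pairs differed by -0.02 and -0.73, so the mean of -0.37 rests on the second time point. In U-H01 it measured 3.32, 3.65, 3.69 and 3.80 on arrays labelled induced (B1 then B2), against 3.58, 3.82, 3.55 and 3.74 on uninduced arrays. These groups overlapped, all 4 arrays of each lay below their own lower quartile, and the difference of -0.06 ± 0.11 did not pass (limma adjusted p = 0.724). IDO2 was lower in U-H01 arrays labelled induced than in HBL-1 induced arrays, with a difference of -1.93 ± 0.14 (adjusted p = 2.18e-07). It was also lower in U-H01 uninduced than in HBL-1 uninduced arrays, with a difference of -2.25 ± 0.14 (adjusted p = 4.39e-08).

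AFMID, which forms kynurenine, was measured well above background on every array and differed between the U-H01 groups. It measured 7.80, 7.47, 7.48 and 7.81 on U-H01 arrays labelled induced (B1 then B2), against 6.81, 6.96, 6.83 and 6.81 on U-H01 uninduced arrays. The groups did not overlap, and AFMID rose by 0.79 ± 0.10 (1.72-fold, limma adjusted p = 3.44e-05). In this comparison 45.8% of all genes passed, and 48.8% of those were higher, or 67.2% when arrays were centred on their medians. In HBL-1, AFMID measured 8.33 and 8.38 on induced arrays, against 8.17 and 8.02 on uninduced arrays, and the pairs differed by 0.15 and 0.35. AFMID was lower in U-H01 than in HBL-1, with a difference of -0.71 ± 0.13 with the induced label (adjusted p = 0.000531) and of -1.25 ± 0.13 without induction (adjusted p = 4.13e-06). All 4 groups were separate in level, in the order HBL-1 induced, HBL-1 uninduced, U-H01 labelled induced and U-H01 uninduced. The split between the HBL-1 groups rests on 2 arrays each and carries little weight.

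KMO, the hydroxylase of kynurenine, was low in both lines and highest in uninduced U-H01. It measured 4.50, 4.45, 4.68 and 4.69 on U-H01 arrays labelled induced (B1 then B2), against 5.003, 4.96, 5.08 and 5.08 on U-H01 uninduced arrays. The groups did not overlap, and the U-H01 pairs differed by -0.51 to -0.39. KMO fell by 0.45 ± 0.07 (1.36-fold, limma adjusted p = 0.000228). On all 4 arrays of each U-H01 group it lay below the array median and above the lower quartile. The arrays labelled induced were the nearer to background, so the fall of KMO can be understated. In HBL-1 it measured 3.98 and 4.01 on induced arrays, against 3.84 and 3.79 on uninduced arrays. The HBL-1 pairs differed by 0.14 and 0.22, opposite to all 4 U-H01 pairs, at levels below the lower quartile of their own array. KMO was higher in U-H01 than in HBL-1, by 0.59 ± 0.09 with the induced label (adjusted p = 0.000167) and by 1.22 ± 0.09 without induction (adjusted p = 2.26e-07).

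KYNU, the kynureninase, had the largest difference among the 6 genes between the U-H01 groups. It measured 8.62, 8.38, 8.50 and 8.24 on U-H01 arrays labelled induced (B1 then B2), against 4.48, 4.30, 4.45 and 4.26 on U-H01 uninduced arrays. Every array labelled induced stood above every uninduced one. KYNU rose by 4.06 ± 0.07 (16.7-fold, limma adjusted p = 5.11e-13), by 4.11 in B1 and 4.02 in B2. On all 4 U-H01 uninduced arrays it lay below the array median, and little above the lower quartiles of 4.18 to 4.26. These levels are close to background, so differences taken from them can be understated. In HBL-1 it measured 7.24 and 7.47 on induced arrays, against 7.42 and 7.63 on uninduced arrays, and these groups overlapped although the pairs differed by -0.18 and -0.16. The rank of the lines changed with the group compared. KYNU was higher in U-H01 labelled induced than in HBL-1 induced arrays, by 1.08 ± 0.09 (adjusted p = 7.15e-07). It was lower in U-H01 uninduced than in HBL-1 uninduced arrays, with a difference of -3.15 ± 0.09 (adjusted p = 3.74e-11).

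WARS1 fell between the U-H01 groups, where KYNU rose. It measured 9.22, 9.01, 8.60 and 9.08 on U-H01 arrays labelled induced (B1 then B2), against 11.7, 11.6, 10.8 and 10.6 on U-H01 uninduced arrays. All arrays labelled induced were below all uninduced ones, and WARS1 fell by 2.19 ± 0.15 (4.55-fold, limma adjusted p = 1.14e-07). Among the U-H01 uninduced arrays, both of B1 stood above both of B2. In HBL-1, WARS1 measured 9.46 and 9.04 on induced arrays, against 9.50 and 9.59 on uninduced arrays, with pair differences of -0.04 and -0.55. Without induction it was higher in U-H01 than in HBL-1, by 1.62 ± 0.19 (adjusted p = 1.44e-05). With the induced label the lines were not told apart, at -0.27 ± 0.19 (adjusted p = 0.317) with a 95% interval from -0.68 to 0.14, and their arrays overlapped. That difference passed without the U-H01 labelled induced array of B2 at time point 2, at -0.48 (adjusted p = 0.0144).

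**Figure D2:**
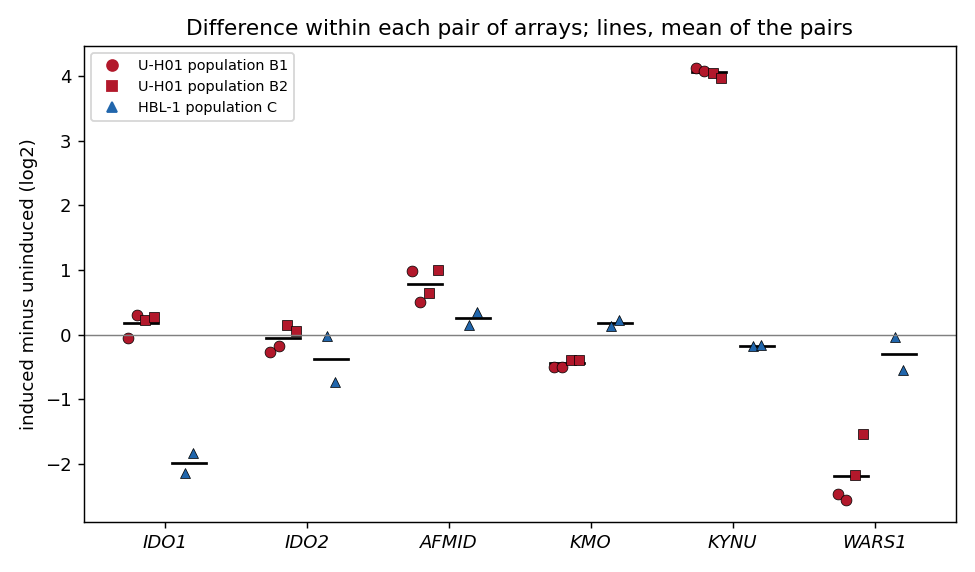
Induced minus uninduced log2 difference (y axis) within each pair of arrays from the same population and time point, by gene (x axis), with U-H01 to the left of HBL-1. Lines are the mean of the pairs. KYNU lies at 3.98 to 4.14 in the U-H01 pairs and at -0.18 and -0.16 in the HBL-1 pairs, and IDO1 lies at -2.15 and -1.84 in HBL-1.

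Counted together, 4 of the 6 genes passed between the U-H01 groups, 2 higher and 2 lower, against 45.8% of all genes, 22.3% higher and 23.5% lower. Of the 5 genes other than IDO1, 5 passed between the uninduced lines, where 42.8% of all genes did (20.7% higher in U-H01 and 22.1% lower). Between the lines with the induced label 4 of these 5 passed, where 38.5% of all genes did (17.9% higher and 20.6% lower). These line comparisons and the induction comparisons share arrays, so their values for a gene are not independent. The U-H01 difference was also compared between B2 and B1, where 0.586% of all genes passed (0.358% higher and 0.228% lower) and 0 of the 6 did. By unadjusted limma p under 0.05 that count is 1, WARS1, whose difference was -2.52 in B1 and -1.86 in B2. The difference between populations was 0.66 ± 0.24 (adjusted p = 0.307).

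Other genes of the kynurenine pathway differed in both directions between the U-H01 groups. Of 9 further pathway genes, 5 rose, 1 fell and 3 did not pass between U-H01 labelled induced and uninduced arrays. That is 66.7% called, against 45.8% of all genes, with a median difference of 0.58 against 0.03 over all genes. HAAO, which acts after KYNU on the way to quinolinate, averaged 6.68 on U-H01 arrays labelled induced and 9.41 on U-H01 uninduced arrays, and fell by 2.73 (limma adjusted p = 4.61e-09). QPRT, which carries quinolinate on toward NAD, rose by 2.22 (adjusted p = 3.25e-07). The transaminases that make kynurenic acid also included genes that rose: KYAT3 by 1.74, GOT2 by 1.11 and KYAT1 by 1.05. TDO2, the liver-type dioxygenase for the IDO step, averaged 3.21 and 3.17 in those groups, and 3.18 and 3.13 on HBL-1 induced and uninduced arrays. In HBL-1, where 0.603% of all genes passed, 0 of the 9 did (1 by unadjusted limma p under 0.05). The nearest was KYAT3 at 0.39 (adjusted p = 0.266). Between the uninduced lines 2 were higher in U-H01 and 2 lower, led by HAAO at 2.89 (adjusted p = 2.41e-08). That is 44.4% called, near the 42.8% of all genes. The GOT2 call there was lost without the HBL-1 uninduced array of time point 1 (adjusted p = 0.225), and that of QPRT without either HBL-1 uninduced array (adjusted p up to 0.0978).

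**Figure D3:**
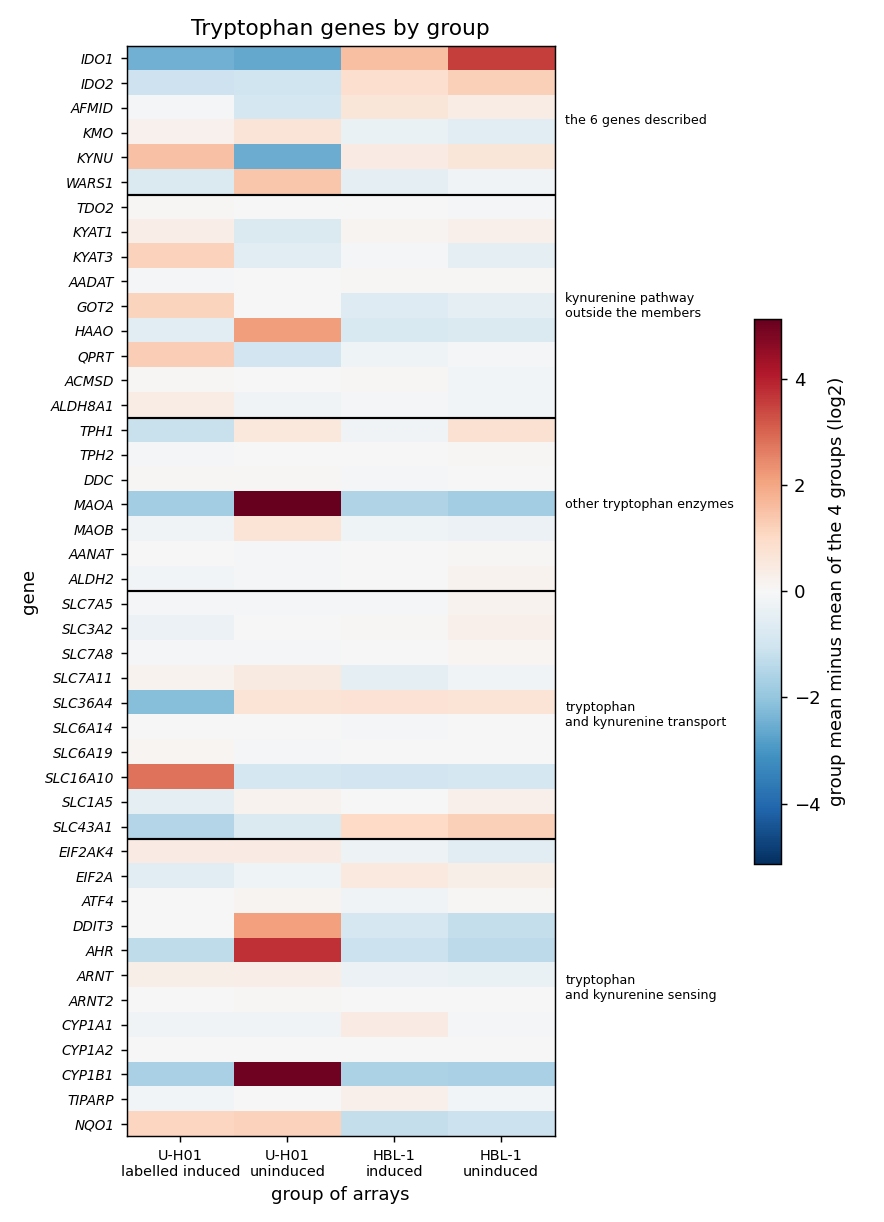
Heat map of the group mean minus the mean of the 4 groups (colour, log2) for the 6 genes and for listed genes of the kynurenine pathway, other tryptophan enzymes, transport and sensing (rows), by group (columns). IDO1 is high in HBL-1, KYNU and SLC16A10 are high in U-H01 labelled induced, and MAOA, CYP1B1, AHR and HAAO are high in U-H01 uninduced.

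Other enzymes of tryptophan include TPH1, which starts serotonin synthesis, and MAOA and MAOB, which degrade serotonin. Of 10 listed, 7 were measured, and between the U-H01 groups 3 fell and 0 rose (median -0.08), a share of 42.9% against 45.8% of all genes. MAOA averaged 4.12 on U-H01 arrays labelled induced and 11.1 on uninduced arrays, and fell by 6.94. Its arrays labelled induced, all 4 below their own lower quartile, were near background, so this difference can be understated. The lists were chosen with earlier results of these data known, so a listed gene that passes in HBL-1 carries less weight. TPH1 was the only gene of this list to pass in HBL-1. It measured 4.85 and 4.77 on HBL-1 induced arrays, against 5.39 and 6.13 on HBL-1 uninduced arrays, and fell by 0.95 ± 0.16 (limma adjusted p = 0.0198). That call was lost without either array of time point 2 (adjusted p = 0.581), with groups as the only model terms (0.0767) and with all probe sets tested (0.0957).

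Carriers of tryptophan, and genes that sense it or kynurenine, were called between the U-H01 groups at shares near or below that of all genes. Of 10 transporters, 1 rose and 3 fell (median -0.15), a share of 40% against 45.8% of all genes. SLC16A10, a carrier of aromatic amino acids, rose by 3.71 (limma adjusted p = 3.23e-11), and SLC36A4, a proton-independent carrier of tryptophan and proline, fell by 2.91 (adjusted p = 3.93e-11). SLC36A4 lay below the array's lower quartile, near background, on 3 of the 4 arrays labelled induced. Of 12 measured genes listed for sensing, 0 rose and 4 fell, a share of 33.3% against 45.8% of all genes. 1 of the 4 was EIF2A, an initiation factor rather than a sensor. Its call was lost when arrays were centred on their medians (adjusted p = 0.0523). Between the lines 58.3% of the list passed, EIF2A included, against 42.8% of all genes without induction and 38.5% with the induced label. AHR, the receptor that kynurenine binds, measured 3.47, 3.45, 3.34 and 3.30 on U-H01 arrays labelled induced (B1 then B2), against 8.65, 8.49, 8.40 and 8.16 on U-H01 uninduced arrays. It fell by 5.03 (adjusted p = 2.64e-13), and CYP1B1, a classical target of AHR, fell by 6.66 (adjusted p = 2.18e-13). Both genes lay below the lower quartile on all 4 arrays labelled induced, near background, so these differences can be understated too. DDIT3, a stress gene downstream of ATF4, fell by 2.06. In HBL-1, AHR was low in both groups, averaging 3.56 on induced and 3.33 on uninduced arrays. There 0 of the 12 passed (2 by unadjusted limma p under 0.05), against 0.603% of all genes. Of 10 genes for NAD synthesis and salvage, 5 rose and 2 fell between the U-H01 groups (70% against 45.8% of all genes), and NAMPT, the main salvage enzyme, fell by 1.16. In HBL-1, 0 of these and 0 of the 10 transporters passed (1 and 0 by unadjusted limma p under 0.05), against 0.603% of all genes.

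Interferon-gamma signalling and its target genes were followed because IDO1 and WARS1 are among those targets. Of 13 measured signalling genes, 5 rose and 5 fell between the U-H01 groups, a share of 76.9% against 45.8% of all genes. JAK2, a kinase of the interferon-gamma receptor, averaged 6.14 on U-H01 arrays labelled induced and 9.41 on uninduced arrays, and fell by 3.27 (limma adjusted p = 9.76e-12). JAK1, its partner kinase, rose by 2.04, and SOCS1, an inhibitor of both, fell by 2.57. In HBL-1 JAK2 was the only gene of this list to pass, from a list chosen with earlier results of these data known. It measured 6.36 and 6.90 on HBL-1 induced arrays, against 5.84 and 5.94 on HBL-1 uninduced arrays, and rose by 0.74 ± 0.12 (adjusted p = 0.0165). The call was lost without either array of time point 1 (adjusted p = 0.0538) or of time point 2 (adjusted p = 0.56), with groups as the only model terms (0.0692) and with all probe sets tested (0.0602).

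Of 19 measured genes that interferon-gamma is known to induce beside IDO1 and WARS1, 11 fell and 5 rose between the U-H01 groups. Their median was -0.62, and 84.2% were called, against 45.8% of all genes. CD274, the PD-L1 ligand, fell by 5.79, GBP5, a guanylate-binding protein, by 3.42 and TAP1, the peptide transporter of antigen presentation, by 2.11. CD274 lay below the lower quartile on 3 of the 4 arrays labelled induced and GBP5 on 1 of them. CIITA, the activator of class II genes, rose by 0.99. In HBL-1, where IDO1 had its difference of -1.99, 0 of the 19 passed (2 by unadjusted limma p under 0.05). As 0.603% of all genes passed there, 0 of 19 does not set this list apart. The median of the 19 was -0.04 against -0.01 over all genes. TAP1 was nearest there, at 0.44 (limma adjusted p = 0.192). Between the uninduced lines 12 were higher in U-H01 and 3 lower, with a median of 1.49, while IDO1 stood lower in U-H01 there. That is 78.9% of the list called, against 42.8% of all genes. CXCL10, a chemokine for T cells, was higher in U-H01 uninduced than in HBL-1 uninduced arrays by 5.94 and TAP1 by 3.63. On both HBL-1 uninduced arrays CXCL10 lay below the lower quartile, near background.

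WARS1 was also set beside the other transfer RNA synthetases. Of 19 measured, 11 fell and 2 rose between the U-H01 groups, with a median of -0.34. The share called was 68.4%, against 45.8% of all genes. When arrays were centred on their medians 7 fell and 3 rose. Their differences ran from -1.40 for LARS1, the leucine enzyme, to 0.47 for IARS1, the isoleucine enzyme, so that the -2.19 of WARS1 lay outside their range. MARS1, the methionine enzyme, fell by 1.24 and EPRS1, which serves glutamate and proline, by 0.95. In HBL-1, 0 of the 19 passed (0 by unadjusted limma p under 0.05), against 0.603% of all genes. Among the 5 NF-kB subunit genes, NFKB2 fell by 0.56 between the U-H01 groups (limma adjusted p = 0.000267). RELA rose by 0.24, a call that 5 of 21 alternative settings did not give. In HBL-1, 0 of the 5 passed (1 by unadjusted limma p under 0.05, which was REL), against 0.603% of all genes. Between the U-H01 differences of B2 and B1, SLC7A5 (1.29, adjusted p = 0.0398), ARNT (1.05, adjusted p = 0.0179) and CD274 (0.87, adjusted p = 0.0398) were the listed genes that passed. These 3 calls were lost in 12, 12 and 16 of 21 alternative settings.

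The genes with profiles closest to IDO1 were found by the root mean square difference over the 12 arrays between profiles centred on their own mean, among 18388 candidates. They were PHGDH and NLRP2 at 0.51, CD1C at 0.51, BANK1 at 0.52 and SLA at 0.55, where IDO1 itself varied by 2.47 about its mean. PHGDH, the first enzyme of serine synthesis, averaged 10.6 on HBL-1 induced and 11.0 on HBL-1 uninduced arrays, and 5.60 and 5.51 on U-H01 arrays labelled induced and uninduced. BANK1, a B-cell scaffold protein, averaged 8.84 and 9.07 in the HBL-1 groups, and 3.86 and 3.73 in the U-H01 groups. The likeness thus rests on the difference between lines, and the difference between the HBL-1 group means was smaller in each of these 5 than in IDO1. By Pearson correlation the closest 5 were other genes, led by LRP2 at 0.995 and TAGAP at 0.993, and 0 were shared. Arrays of a line share that line, so these values describe the 12 arrays only.

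**Figure D4:**
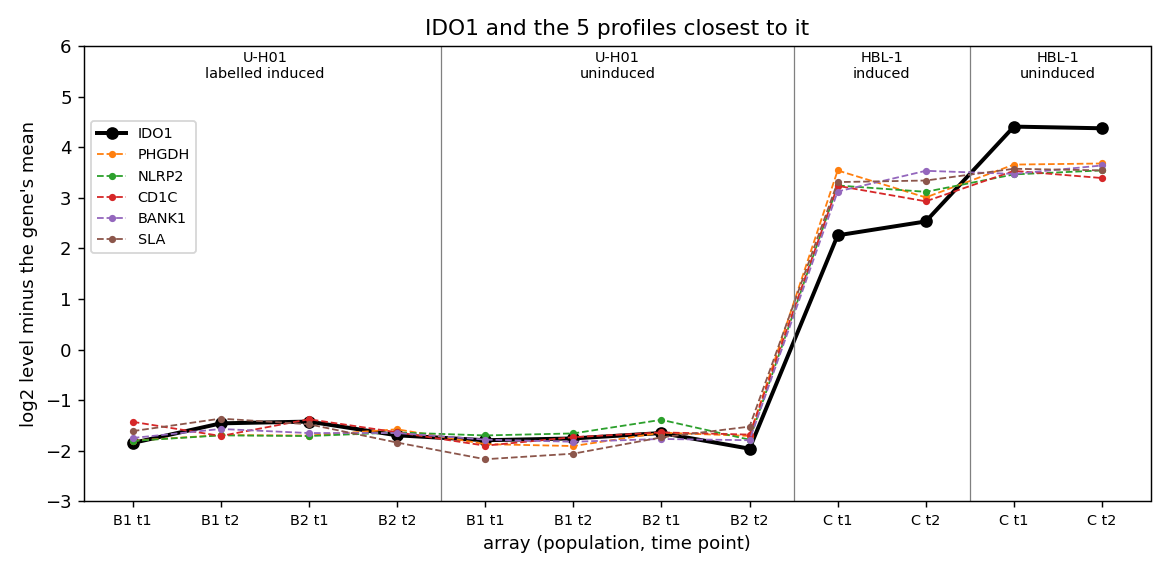
Log2 level minus the gene's own mean (y axis) on each array (x axis, population and time point) for IDO1 and the 5 genes with the closest profiles. The lines run together over the 8 U-H01 arrays and part in HBL-1, where IDO1 is below the others on the induced arrays and above them on the uninduced arrays.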

How the data were processed

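RNA was measured on 12 arrays, 8 of U-H01 and 4 of HBL-1, grouped by their titles. The values the authors deposited are log2 levels. The submitters' processing notes name RMA and Partek, with versions not given in the sources used here. RMA makes the distributions of the arrays alike, so that a shift common to all genes may be hidden. Array medians lie between 5.79 and 5.88, and the number of arrays limits the precision. Of 33297 probe sets, 19460 carry 1 gene symbol, 1754 several and 12083 none. The 19460 were tested, and the brightest stood for each of 18417 genes. Entrez identifiers of 19429 matched the RefSeq gene table of GRCh38.p14, which changed 0 symbols. There were 0 pairs of arrays with identical values.

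All comparisons came from 1 model over the 12 arrays in limma 3.58.1 (R 4.3.3, lmFit and eBayes) with population, time point within line and induction within line, 7 terms and 5 residual degrees of freedom. Tests were two-sided, with Benjamini-Hochberg adjustment over all tested probe sets. The fit was also run on simulated data with independent noise on each array. Such data cannot show how arrays that share a culture affect the p-values. Figures used matplotlib 3.10.9 under Python 3.11.15. Alternatives covered the model terms, scaling, filters, the probe set per gene and each array left out.

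The pairing comes from the labels' protocols, by which each transduced population was split for induction. Within pairs, the arrays' deviations from group means had correlations of 0.14 and -0.02 (B1), 0.10 and 0.03 (B2) and 0.09 (C). The members and lists were chosen with earlier results of these data known. Named are the 6 members, up to 4 genes of each list with the smallest p, any listed gene passing in HBL-1, and the 5 profiles closest to IDO1. RELB and REL are given as targets of the hairpins, and KYAT1, TDO2, CIITA and IARS1 were chosen after their values were seen. Marker lists covered B cells, Hodgkin cells, T and NK cells, myeloid and dendritic cells, and endothelium, stroma and epithelium. Motifs were searched on both strands of the RefSeq windows.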

Additional observations from a re-analysis of the deposited data

Results flagged for a closer look

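AFMID on U-H01 uninduced arrays held 1 array apart from the other 3, at 6.96 in B1 at time point 2 against 6.81 to 6.83. The 12 groups of 4 arrays were checked in this way, and chance marks about 1 in 20. KMO differed in opposite directions in the lines, with a mean of -0.45 over the 4 U-H01 pairs and 0.18 over the 2 HBL-1 pairs, and every pair of a line went the same way. KYNU did so too, with a mean of 4.06 over the U-H01 pairs and -0.17 over the HBL-1 pairs. For both genes the difference between the lines was not tested.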

How the results depend on the processing

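Among the members, the calls of KYNU, WARS1, AFMID and KMO between the U-H01 groups held in every alternative that tested them, with their direction. The filter on probe sets above the median level left IDO1, IDO2 and KMO untested. IDO2 turned to 0.076 between the U-H01 groups with arrays centred on their medians and to 0.0084 without the labelled induced array of B1 at time point 1, and ran from -0.13 to 0.0084 with 1 array left out. Between the U-H01 differences of B2 and B1, where 0 members passed, IDO1 turned to -0.16, -0.03 and -0.06 without the labelled induced array of B1 at time point 1, that of B2 at time point 1 and the uninduced array of B2 at time point 2. AFMID turned to -0.16 and -0.12 there without the labelled induced array of B1 or of B2 at time point 2. With 1 array left out these ran from -0.16 to 0.41 for IDO1 and from -0.16 to 0.33 for AFMID, and in none of these did IDO1, IDO2 or AFMID pass. With the pair as a replicate block, 87 genes passed in HBL-1, 8181 in U-H01, 7682 between the uninduced lines, 6869 between the lines with the induced label and 92 for B2 against B1, and no call of a member changed. The HBL-1 count of 111 became 868 with the line fitted alone, 73 above the median level, 38 with all probe sets tested and 316 without the 4 U-H01 arrays labelled induced, an alternative chosen after seeing the data. Leaving out 1 array gave 8 to 149. The B2 against B1 count of 108 became 36 with the line fitted alone, 212 with trend and robust options and 2 with all probe sets tested, and leaving out 1 array gave 15 to 129. Leaving out 1 array gave 7710 to 8209 in U-H01, 5418 to 8004 between the uninduced lines and 4785 to 7047 between the lines with the induced label. The cause of these shifts was not tested. Centring moved the median gene between the U-H01 groups to 0.16 and the split to 6981 higher and 3414 lower. Levels near background limit what can be said of IDO1 and IDO2 in U-H01, of KMO in HBL-1 and of KYNU on U-H01 uninduced arrays. To a lesser degree this holds for KMO on U-H01 arrays labelled induced. Levels near background also limit what can be said of AHR, CYP1B1, MAOA, TPH1, SLC36A4 and CD274 on U-H01 arrays labelled induced.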

Other observations

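Markers of other cell types were read against the median of each array. Of 8 T and NK cell markers, NKG7 alone lay above the array median, in all 4 groups, and the mean level of the list was 4.74 to 4.94 on U-H01 arrays labelled induced, 4.63 to 4.75 on U-H01 uninduced arrays, 4.63 to 4.70 on HBL-1 induced arrays and 4.65 to 4.79 on HBL-1 uninduced arrays. Of 9 myeloid and dendritic cell markers, 0 lay above the median on U-H01 arrays labelled induced, and 1 did in each other group, which was FCER1A on U-H01 uninduced arrays and CD1C in both HBL-1 groups, at a mean of 9.34 on induced and 9.72 on uninduced arrays. Of 8 markers of endothelium, stroma and epithelium, 3 lay above it in both U-H01 groups and 4 in both HBL-1 groups, all of them COL1A1, EPCAM, KRT8 or KRT18. Of 5 markers of Hodgkin cells, 3 lay above the median on U-H01 arrays labelled induced and 5 on U-H01 uninduced arrays, and 4 did in each HBL-1 group.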
